A study of Mus musculus with 8 samples.

Results

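The loci of 35 genes of glycolysis, lactate handling and the response to low oxygen were followed in Hi-ChIP loop lists of mouse pancreatic cancer cells. Hi-ChIP joins chromatin conformation capture with immunoprecipitation, and a loop joins 2 stretches of a chromosome, its anchors, that were ligated to each other in chromatin held by the antibody. A loop belonged to a gene when one of its anchors lay within 2 kb of an annotated start of that gene. By this rule 31 of the 35 genes had a loop, through 44 of the 30542 anchors, and they took part in 959 of the 249200 distinct loops. Antibodies to FOXA1 or to HNF4G were used on a cell line from a primary tumor of the KPC mouse, a genetically engineered model of pancreatic cancer, and on a matched line from a liver metastasis (liver mets), which gave 4 groups. All cells were labelled untreated and WT for genotype, and were grown in DMEM with 10% FBS, so the comparison of tumor with liver mets rests on 1 line of each. Each group had 2 replicates and 1 joint loop list, of 104136 loops for FOXA1 tumor, 125623 for FOXA1 liver mets, 76323 for HNF4G tumor and 78098 for HNF4G liver mets. No spread between replicates was therefore available and no difference between groups was tested. All intervals below are 95% intervals that cover counting error only, and no allowance was made for loops that share an anchor.

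Glycolysis splits glucose into pyruvate, and lactate dehydrogenase turns pyruvate into lactate, which monocarboxylate transporters carry out of the cell. When oxygen is short, HIF transcription factors escape the prolyl hydroxylases that mark them for degradation, bind the core motif ACGTG near their targets and raise many glycolytic genes together with genes such as Vegfa, the main growth factor of blood vessels. Pancreatic tumors are known for poor blood supply. FOXA1 is a forkhead factor that can open chromatin, and HNF4G is a nuclear receptor of the endoderm. A loop list shows where these factors sit in contacts, and it measures neither transcription nor oxygen.

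The promoters themselves carried the HIF core more often than other promoters. RefSeq promoter sequences (GRCm38, 250 bases before to 50 bases after a start) were found for 32 of the 35 genes, with 46 promoters in all, and not for Slc2a3, Epas1 and Ndrg1. The letters ACGTG occurred on either strand in 24 of the 46 (52.2%, Wilson interval 38.1 to 65.9), against 19.6% of all 32851 promoters and 25.9% of 9661 promoters of other coding genes whose start lay within 2 kb of an anchor. Promoters of the same gene can overlap and hold the same match, as at Aldoa, and the interval makes no allowance for this. By gene, 21 of the 32 had a match in at least 1 promoter. The median GC content was 61.2% and 62.3% in the promoters of the set and in those other coding promoters, and at the GC content of the set the share of other coding promoters was 26.3%. Among the 39 promoters of the set within 2 kb of an anchor, 21 (53.8%) had a match. The letters also lie inside the palindrome CACGTG, a motif read by other factors as well, which gives a match on each strand at neighboring positions. This palindrome stood in 6 of the 46 promoters (13%) and in 10.3% of the other coding promoters. The forkhead core TGTTTAC and the HNF4 core CAAAGTC each had a match in 1 of the 46 (2.17%), against 2.95% and 3.70% of other coding promoters at anchors. A match is a run of letters and not a bound site, and since HIF targets were among the genes chosen, no test of these shares was made.

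**Figure D1:**
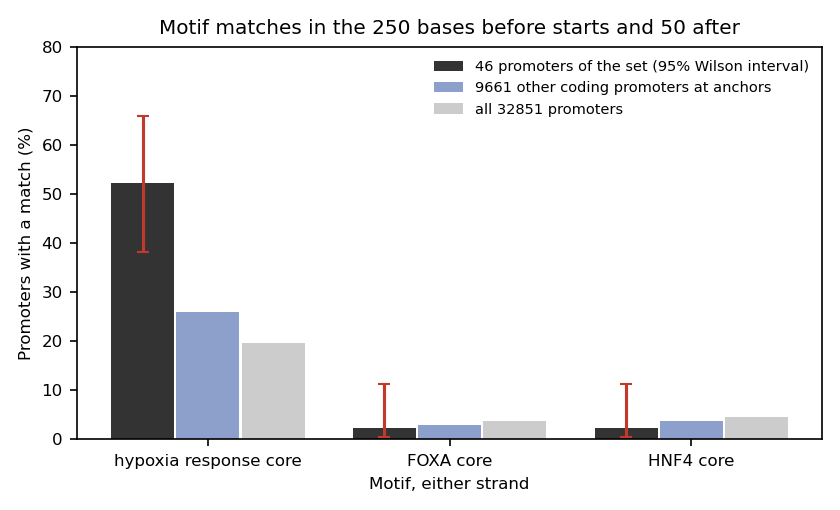
Share of promoters (%) that hold each motif on either strand, for the 46 promoters of the set with 95% Wilson intervals, 9661 other coding promoters at anchors and all 32851 promoters. The hypoxia response core stood in 52.2%, 25.9% and 19.6%, and the FOXA and HNF4 cores stood in under 5% of each.

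The 250 bases before the start are shown for 5 genes, because they span the range from several HIF cores to 1, and because the last of them had the core but no loop. Matches to ACGTG on either strand are in capitals, and the sequences run 5′ to 3′ toward the gene. Ldha, lactate dehydrogenase A, lies at chr7:46845554-46845803 on the plus strand. Hif1a, the oxygen-regulated HIF subunit, lies at chr12:73907617-73907866 (plus). Slc16a1, a lactate transporter, lies at chr3:104638414-104638663 (plus). Egln3, a prolyl hydroxylase, lies at chr12:54203875-54204124 (minus), and Hk2, a hexokinase, at chr6:82774455-82774704 (minus).
Ldha: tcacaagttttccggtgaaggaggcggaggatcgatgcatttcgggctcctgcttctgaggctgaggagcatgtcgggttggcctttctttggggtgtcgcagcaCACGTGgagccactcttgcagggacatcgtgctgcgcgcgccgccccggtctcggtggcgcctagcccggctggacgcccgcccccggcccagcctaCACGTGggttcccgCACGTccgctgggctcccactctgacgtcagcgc
Hif1a: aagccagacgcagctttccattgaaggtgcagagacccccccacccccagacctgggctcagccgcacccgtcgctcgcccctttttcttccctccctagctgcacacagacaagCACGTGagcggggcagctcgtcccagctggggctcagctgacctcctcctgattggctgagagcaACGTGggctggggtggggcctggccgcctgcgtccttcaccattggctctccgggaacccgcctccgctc
Slc16a1: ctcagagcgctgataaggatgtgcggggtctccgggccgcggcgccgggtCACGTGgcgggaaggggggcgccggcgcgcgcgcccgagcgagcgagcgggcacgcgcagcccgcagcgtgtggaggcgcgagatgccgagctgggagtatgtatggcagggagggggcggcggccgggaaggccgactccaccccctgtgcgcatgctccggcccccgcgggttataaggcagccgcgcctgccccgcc
Egln3: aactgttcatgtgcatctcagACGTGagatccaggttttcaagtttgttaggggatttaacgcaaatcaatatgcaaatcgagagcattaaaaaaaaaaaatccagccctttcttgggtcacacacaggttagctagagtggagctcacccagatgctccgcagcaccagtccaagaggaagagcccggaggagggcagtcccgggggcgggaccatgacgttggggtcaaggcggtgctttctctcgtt
Hk2: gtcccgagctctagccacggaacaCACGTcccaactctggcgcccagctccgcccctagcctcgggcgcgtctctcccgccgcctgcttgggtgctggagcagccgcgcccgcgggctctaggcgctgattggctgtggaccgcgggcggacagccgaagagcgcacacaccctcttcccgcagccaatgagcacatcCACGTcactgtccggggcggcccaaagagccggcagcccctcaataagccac
The Ldha promoter had 5 matches, which include 2 copies of the palindrome, Hif1a had 3, and Slc16a1 had 2 in the bases shown and 1 more after its start. Hk2 had 2 matches and no anchor within 2 kb.

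Loops per gene were counted next. The 31 genes with a loop had a median of 37.0 loops summed over the 4 lists (quartiles 22.0 and 73.5), against 23.0 (11.0 to 45.0) for 10755 other coding genes with a loop. A loop common to all 4 lists was found for 20 of the 31 (64.5%) and for 39.7% of the other genes. The genes of the set also had more anchors in reach, with a median of 119 other anchors within the loop spans of 5 to 2000 kb against 88.0, and wider anchors, at 2.87 kb against 2.49 kb. Of the anchor pairs in reach, a median of 23.9% were listed in at least 1 list for the set and 19.8% for the others. Reach and width thus moved with the loop number, and their part in it was not tested. For comparison, 39 further genes of the same pathways, such as Bsg, Pdk2 and Mxi1, had loops in 28 cases with a median of 30.0. The highest of these were Mxi1 with 159 loops, Bsg, the partner protein of the lactate transporters, with 130, and Pdk2, a kinase of pyruvate dehydrogenase, with 127.

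**Figure D2:**
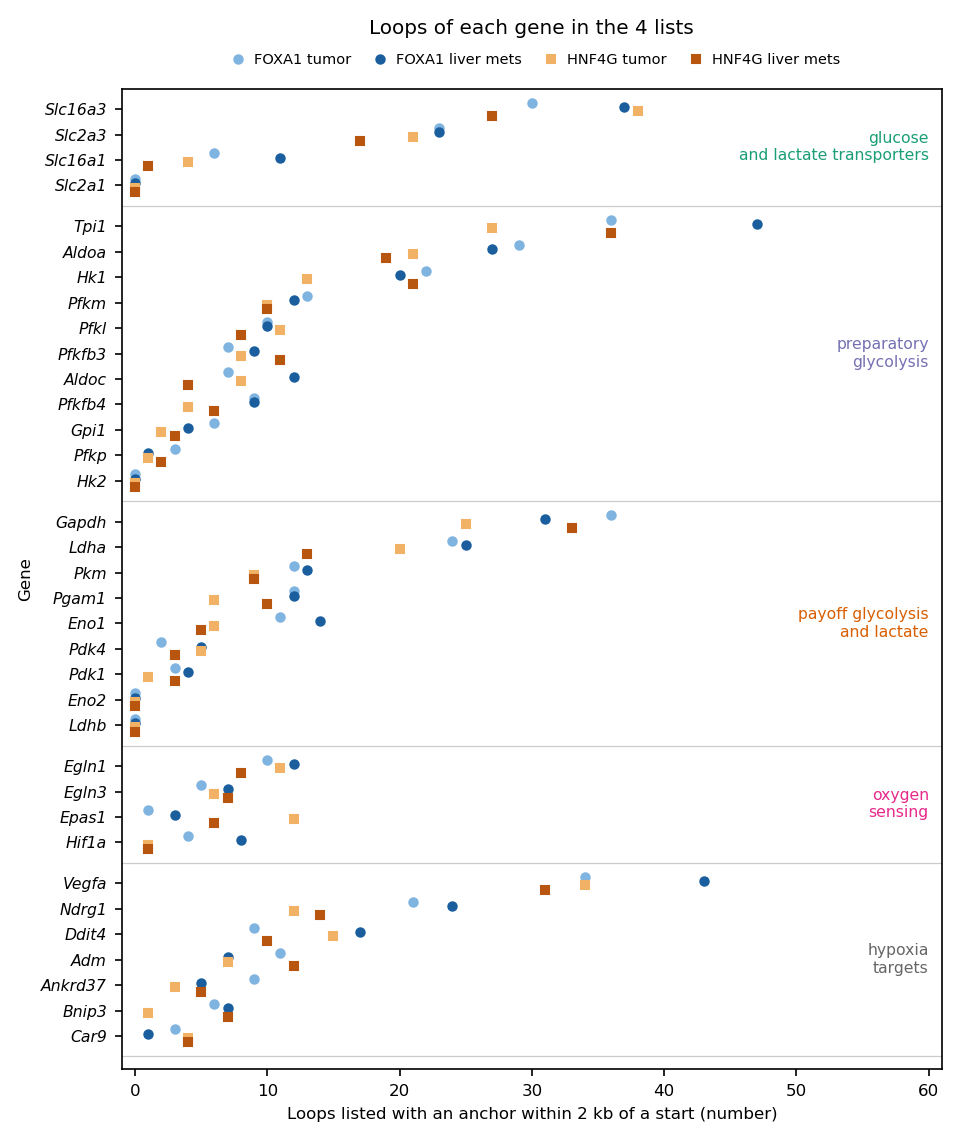
Number of loops listed for each of the 35 genes (rows, by functional group) in the 4 lists (symbols). Tpi1, Vegfa, Slc16a3 and Gapdh lie farthest to the right, and Slc2a1, Hk2, Eno2 and Ldhb sit at 0 in all 4 lists.

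Among the transporters, Slc16a3, the lactate exporter MCT4, had 30 loops in FOXA1 tumor, 37 in FOXA1 liver mets, 38 in HNF4G tumor and 27 in HNF4G liver mets. Slc2a3, the glucose transporter GLUT3, had 23, 23, 21 and 17 in the same order, through 2 anchors that held none of its starts, with the nearest 0.405 kb from one. Slc16a1, the transporter MCT1, had 6, 11, 4 and 1. Slc2a1, the glucose transporter GLUT1, had no loop by the rule. Its nearest anchor lay 2.12 kb from a start, just outside the limit, and had 0, 1, 1 and 1 loops.

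In upper (preparatory) glycolysis, from glucose to the triose phosphates, Tpi1, triosephosphate isomerase, had 36, 47, 27 and 36 loops, the highest sum of the set at 146. One of its 2 anchors lies within 2 kb of the start of Spsb2 too and holds no start of Tpi1, so loops there cannot be given to one of these genes. This anchor had 28, 38, 23 and 26 loops, and the anchor at the Tpi1 promoter had 9, 10, 5 and 11 (35 in sum), so the high number of Tpi1 rests on the shared anchor. Vegfa, with 1 anchor that no other coding gene shares, had 142. Aldoa, an aldolase, had 29, 27, 21 and 19, with an anchor shared with Fam57b, and Hk1, a hexokinase, had 22, 20, 13 and 21. The others ran from 45 loops in sum for Pfkm, which shares an anchor with Senp1, to 7 for Pfkp, both subunits of phosphofructokinase. Pfkfb3, which makes the activator of phosphofructokinase, had 7, 9, 8 and 11, Aldoc had 7, 12, 8 and 4, and Gpi1, glucose-6-phosphate isomerase, had 6, 4, 2 and 3. Hk2, the inducible hexokinase, had none. Its nearest anchor, at chr6:82720015-82721708, was 4.60 kb from an annotated start inside the gene. That anchor lies past the 3′ end of Hk2 (82725025-82774454, minus strand) and not near the promoter shown above.

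In lower (payoff) glycolysis, from the triose phosphates to lactate, Gapdh, which makes the first NADH of the pathway, had 36, 31, 25 and 33 loops and shares an anchor with Ncapd2. Ldha had 24, 25, 20 and 13, and Pkm, pyruvate kinase, had 12, 13, 9 and 9. Pgam1, a phosphoglycerate mutase, had 12, 12, 6 and 10, and Eno1, an enolase, had 11, 14, 6 and 5. Ldha, Pkm, Pgam1 and Eno1 all had more loops with FOXA1 than with HNF4G in both lines, and the FOXA1 lists were longer. Pdk1 and Pdk4, kinases that shut pyruvate out of the mitochondrial cycle, had 11 and 15 in sum. Eno2 and Ldhb had none. The anchor nearest to Eno2 was 3.85 kb from an annotated start inside the gene. It lies at the start of Atn1, past the 3′ end of Eno2 (124760053-124769673, minus strand), and had 21, 22, 18 and 15 loops. For Ldhb the nearest anchor was 107 kb from an annotated start. Absence was less common in the set than in the genome, with 4 of 35 genes (11.4%) without an anchor within 2 kb against 10942 of 21728 coding genes (50.4%).

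The 4 oxygen-sensing genes had fewer loops than the other groups, with a median of 23.5 in sum, near the 23.0 of other coding genes with a loop. Egln1, the main HIF prolyl hydroxylase, had 10, 12, 11 and 8, and Egln3 had 5, 7, 6 and 7. The HIF subunits had few loops and differed in the factor that listed them. Epas1, which encodes HIF2α, had 1 and 3 loops in the FOXA1 lists of tumor and liver mets and 12 and 6 in the HNF4G lists. Hif1a had 4 and 8 in the FOXA1 lists and 1 and 1 in the HNF4G lists.

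Among the hypoxia targets Vegfa led with 34, 43, 34 and 31 loops. Ndrg1, a stress-induced gene, had 21, 24, 12 and 14, and Ddit4, an inhibitor of mTORC1, had 9, 17, 15 and 10. Adm, the vessel peptide adrenomedullin, had 11, 7, 7 and 12. Ankrd37, which shares an anchor with Lrp2bp, had 9, 5, 3 and 5. Bnip3, a mitophagy receptor, had 6, 7, 1 and 7, and Car9, a carbonic anhydrase of the cell surface, had 12 in sum.

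Vegfa was described in more depth because its loops held the highest values of the set. Each loop carries a value without a name, read here as −log10 of an adjusted p, whose maximum is 20. Loops were counted whatever their value, and a low value is weak evidence of a contact on this reading. A value of 2 or more was reached by 10.7% of the loops of the set in FOXA1 tumor and 11.8% in FOXA1 liver mets. In HNF4G tumor it was 12.4% and in HNF4G liver mets 10.1%. Loops in all 4 lists could have low values throughout, as between Pkm and Gramd2 (0.0886 to 0.171). Of all loops of the set, 4 in FOXA1 liver mets and 2 in HNF4G tumor reached 20, and all 6 started at the Vegfa promoter anchor, at chr17:46026233-46033908 (mm10). At a value of 10 or more the Vegfa anchor had 12 loops over the 4 lists, which ranked it at 10 among the 11729 coding promoter anchors, of which 387 had any such loop. It had 17 loops in all 4 lists, at rank 12, where the median coding promoter anchor had 0. The Vegfa anchor was 7.68 kb wide with 165 anchors in reach, against medians of 2.49 kb and 88.0 for other coding genes with a loop. The part of width and reach in these ranks was not tested. Without Vegfa, no loop of the set had a value of 10 or more in any list, and the share at 4 or more went from 2.42% to 0.792% in FOXA1 tumor, from 3.70% to 2.16% in FOXA1 liver mets, from 3.18% to 1.92% in HNF4G tumor and from 2.03% to 0.637% in HNF4G liver mets. Loops of other coding promoters had 1.90%, 2.61%, 2.11% and 2.06%. Leaving out Vegfa was a choice made after its values were seen.

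The strong Vegfa contacts lay on the downstream side of the gene, between 155 and 345 kb from its promoter anchor. The partner at 45733998 to 45737878, with starts of 1600014C23Rik and of the long noncoding gene F630040K05Rik, had values of 10.3 in FOXA1 tumor, 20 in FOXA1 liver mets, 20 in HNF4G tumor and 11.1 in HNF4G liver mets. The partner at 45724682 to 45728005, with no annotated gene, had 10.5, 10.2, 20 and 5.82. At 45784014 to 45786885, in an exon of F630040K05Rik, the values were 9.91, 20, 7.90 and 1.86. At 45849804 to 45853967 they were 11.3, 20, 2.98 and 12.7, and at 45871441 to 45878748 they were 8.29, 20, 2.86 and 3.0, both with no annotated gene. Each of these 5 contacts was listed in all 4 lists, and FOXA1 liver mets had 4 of them at 20. On the other side of the gene, a partner 102 kb away in an intron of Rsph9 had 6.51 in HNF4G tumor and 0.804 to 1.31 in the other lists. The depth behind each list is unknown, so a higher value in one list than in another is not shown to be a stronger contact.

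**Figure D3:**
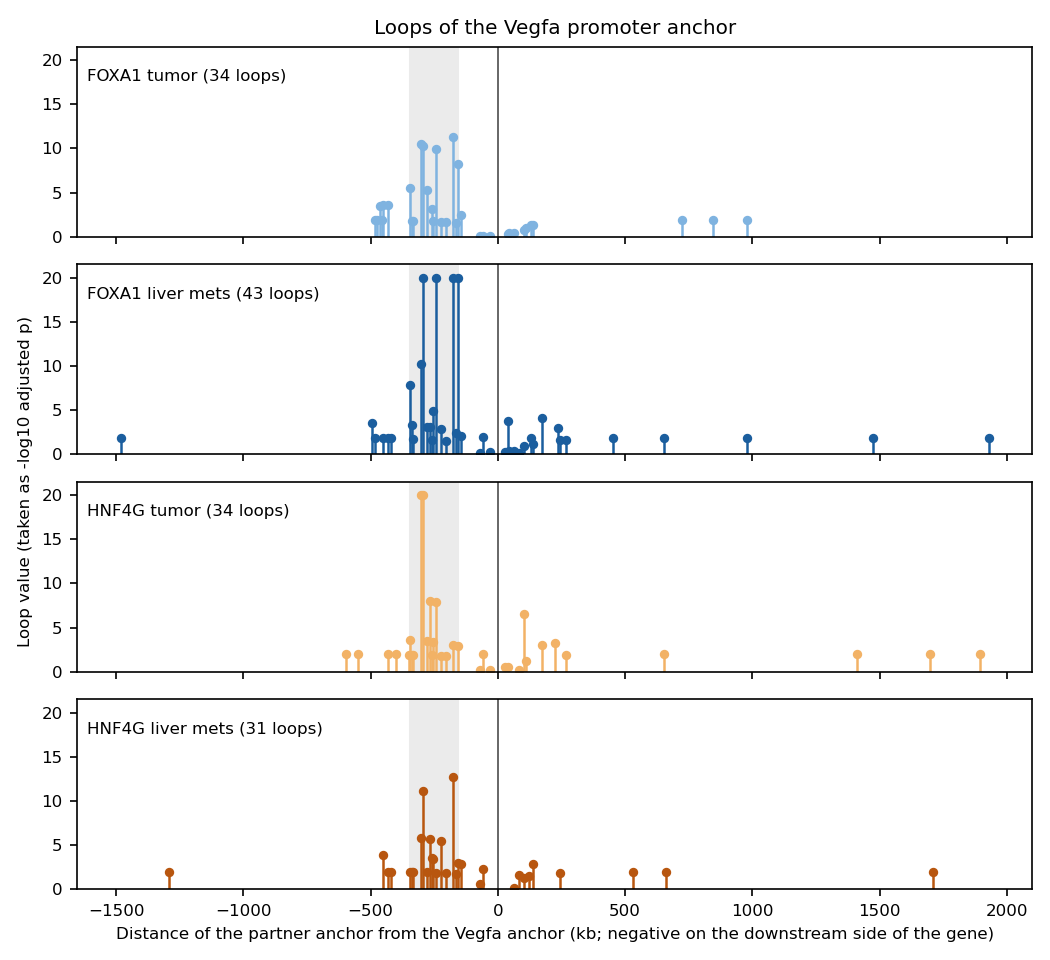
Value of each loop of the Vegfa promoter anchor (vertical axis, taken as −log10 adjusted p, maximum 20) against the distance of its partner anchor in kb (negative on the downstream side), with 1 panel per list. The shaded stretch from 155 to 345 kb downstream holds the highest values in all 4 panels.

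Motif matches were also sought in the distal partners, and 3 stretches of 107 bases are shown, since they come from contacts with values of 10 or more in at least 1 list. The first, at chr17:45726258-45726364, has a forkhead core, the second, at chr17:45852143-45852249, has an HNF4 core and the third, at chr17:45877151-45877257, has a forkhead core. All are given on the plus strand with the match on either strand in capitals.
Partner 304 kb downstream: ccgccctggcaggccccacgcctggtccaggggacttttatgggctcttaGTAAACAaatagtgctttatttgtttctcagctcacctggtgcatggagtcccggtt
Partner 178 kb downstream: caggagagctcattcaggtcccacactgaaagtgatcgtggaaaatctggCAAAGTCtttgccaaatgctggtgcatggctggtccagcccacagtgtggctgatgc
Partner 155 kb downstream: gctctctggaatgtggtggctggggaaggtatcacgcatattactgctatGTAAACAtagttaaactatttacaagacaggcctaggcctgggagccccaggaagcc
Of the 17 partners that Vegfa kept in all 4 lists, others with high values, such as the F630040K05Rik start, had neither core. Over the 359 distal partners of the whole set the forkhead core occurred 0.172 times per kb (Poisson interval 0.147 to 0.199) and the HNF4 core 0.164 times (0.140 to 0.191), against 0.205 and 0.172 in all anchors without a start. The 44 promoter anchors of the set had 0.0834 forkhead cores per kb (0.0431 to 0.146), against 0.144 in other coding promoter anchors, and 1.36 HIF cores per kb (1.18 to 1.57) against 0.904.

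Other strong contacts were spread over several genes. Ndrg1 reached an intron of St3gal1 194 kb away with values of 8.63 in FOXA1 liver mets, 1.61 in FOXA1 tumor and 3.23 in HNF4G liver mets, and it kept 5 loops in all 4 lists. The anchor that Tpi1 shares with Spsb2 contacted the start of Mlf2 124 kb away with values of 3.58, 0.915, 1.40 and 6.12. It also contacted the starts of Emg1 and Phb2 95 kb away, with 6.96 in HNF4G tumor. Egln1 had a loop of 1529 kb with a value of 6.79 in FOXA1 liver mets, while an anchor beside that partner, 1525 kb away, had 1.99 in HNF4G tumor. Ddit4 kept 5 loops in all 4 lists, between 6.97 and 49.4 kb long, and the longest, to an exon of Dnajb12, had 6.66 in HNF4G tumor and 0.739 to 1.87 elsewhere. Adm contacted an anchor with no annotated gene 342 kb away in all 4 lists, with 5.34 in FOXA1 liver mets and 1.81 to 3.48 in the others.

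Among the transporters and the other glycolytic enzymes, Slc16a3 was joined to the start of Mafg 318 kb away with 5.70 in HNF4G liver mets and 3.19 in FOXA1 liver mets, and this loop was in neither tumor list. The anchor that Gapdh shares with Ncapd2 contacted an anchor without annotated gene 243 kb away in all 4 lists, with values of 1.7, 4.56, 1.84 and 1.83. This contact cannot be given to Gapdh rather than Ncapd2. Aldoa reached the starts of Maz and Kif22 over 217 kb with 4.89, 2.74 and 3.20 in the first 3 lists and was not listed in HNF4G liver mets. Hk1 reached an intron of Tspan15 118 kb away in all 4 lists, with 1.13, 0.762, 2.31 and 2.57. Ldha reached the start of Tmem86a over 211 kb with 4.47 in FOXA1 liver mets, and Pgam1 reached that of Avpi1 over 217 kb in all 4 lists, with 2.97, 1.54, 1.78 and 1.82. The partners of Slc16a3, Aldoa, Ldha and Pgam1 held starts, and those of Gapdh and Hk1 did not.

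Some partners were themselves genes of these pathways. Tpi1 and Gapdh are neighbors on chromosome 6, and the loops between them started at the anchor that Tpi1 shares with Spsb2. The loop of 354 kb, to a Gapdh anchor that held none of its starts, was in FOXA1 liver mets (value 3.29) and HNF4G liver mets (1.92). That of 359 kb went to the other Gapdh anchor, which is shared with Ncapd2, in FOXA1 tumor (1.82). Neither loop can be given to Tpi1 rather than Spsb2. Eno1 was joined to the start of Slc2a5, a fructose transporter, 98.9 kb away in all 4 lists, with values of 0.0889 to 1.23. Ddit4 was joined to P4ha1, a collagen prolyl hydroxylase, over 627 kb in FOXA1 tumor. In 11 genes of the set a loop joined a pair of anchors within 2 kb of starts of the same gene, and in 8 of these (Hk1, Slc16a3, Ndrg1, Pfkm, Tpi1, Gapdh, Ldha and Aldoa) it was present in all 4 lists. These 8 loops were short, at 5.79 to 17.7 kb where the lists begin at 5 kb, with values from 0.0737 to 2.70. In Hk1, Slc16a3, Ndrg1, Tpi1 and Gapdh an anchor of the pair held no start of the gene.

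Promoter and distal partners were compared with those of other coding promoters. Each loop was counted once at each anchor of the set, and the other promoters were brought to the same span distribution over 8 span ranges. The partner anchor was itself at a promoter in 54.0% of loop ends in FOXA1 tumor (Wilson interval 49.3 to 58.7), 52.4% in FOXA1 liver mets (47.8 to 56.8), 57.5% in HNF4G tumor (52.3 to 62.5) and 54.3% in HNF4G liver mets (49.2 to 59.4). Other coding promoters had 57.3%, 56.2%, 60.4% and 58.6% at the same spans. The Mantel-Haenszel odds ratio over span ranges was 0.873 (0.721 to 1.06), 0.855 (0.713 to 1.03), 0.886 (0.717 to 1.09) and 0.841 (0.683 to 1.04). Each value was below 1 and each interval included 1.

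The share varied more between the genes than between the lists. Over distinct loops, the partner was a promoter in 64.5% for upper glycolysis (59.2 to 69.5), 55.0% for lower glycolysis (48.5 to 61.3), 54.5% for the transporters (46.7 to 62.2), 46.4% for the hypoxia targets (39.4 to 53.4) and 26.8% for oxygen sensing (17.9 to 38.1). The surroundings differed as well, since in the same order promoters made up 58.7%, 50.8%, 51.9%, 42.2% and 34.2% of the anchors in reach. At single genes, Aldoa had a promoter at 86.4% of its distinct loop ends (75.5 to 93.0), with 67.3% in reach. Ankrd37, with an anchor shared with Lrp2bp, had 65.0% (43.3 to 81.9) with 36.9% in reach. Eno1 had 20.8% (9.24 to 40.5) with 45.4% in reach, and thus looped mostly to anchors without a start. Ldha, at 75% with 76.3% in reach, and Vegfa, at 54.8% (42.5 to 66.6) with 47.3%, had shares whose intervals included that of their surroundings.

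**Figure D4:**
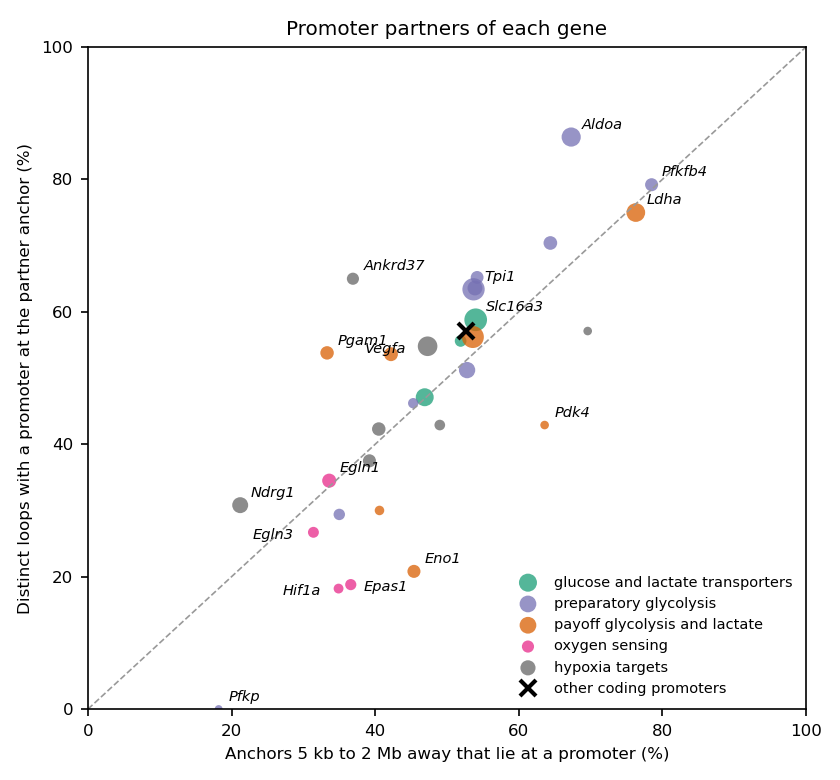
Share of a gene's distinct loops with a promoter at the partner anchor (%, vertical) against the share of promoter anchors among all anchors 5 kb to 2 Mb away (%, horizontal), 1 point per gene, with point area rising with the number of loops. The points follow the diagonal of equal shares, with Aldoa, Ankrd37 and Pgam1 above it and Eno1 below. The cross for other coding promoters lies somewhat above it as well.

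Spans differed little from those of other promoters. The median span was 154 kb in FOXA1 tumor, 155 kb in FOXA1 liver mets, 149.8 kb in HNF4G tumor and 137 kb in HNF4G liver mets, against 152, 176, 147 and 127 kb. The interval of the median in FOXA1 liver mets, 137 to 178 kb, included the value of the other promoters. Among the genes with 10 or more distinct loops, medians over distinct loops ran from 92.5 kb at Hk1 to 1230.3 kb at Egln1.

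The same loops were sought in both lines and with both factors. FOXA1 tumor and liver mets shared 173 loops of the set, 41.9% of the smaller list (37.2 to 46.7) and 37.7% of the larger, where 40.8% of the smaller list was shared by other coding promoters at these spans. HNF4G tumor and liver mets shared 129, 37.4% of the smaller list (32.5 to 42.6) and 37.3% of the larger, against 34.7%. The factors shared 138 loops in tumor (39.9% of the smaller list, 33.4% of the larger) and 148 in liver mets (42.9% and 32.2%), against 38.3% and 43.5% of the smaller list. Of the 959 distinct loops, 587 (61.2%) were in 1 list and 67 (6.99%) in all 4, against 66.0% and 5.49% for other coding promoters. By factor, 397 were found with FOXA1 only, 260 with HNF4G only and 302 with both.

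Change by line was small over the set as a whole. With FOXA1 the set had 413 loops in tumor and 459 in liver mets, a ratio of 1.11 (exact interval 0.971 to 1.27), where the loop ends of other coding promoters at the same spans gave 1.17. The ratio of the set to the others was 0.946 (0.828 to 1.08). HNF4G listed 346 loops of the set in tumor and 345 in liver mets (0.997, 0.856 to 1.16), with 0.965 for the others and a ratio of the set to the others of 1.04 (0.897 to 1.21). None of the 5 functional groups had an interval of liver mets over tumor that left out 1, for either factor. The group ratios farthest from 1 were those of the transporters with HNF4G, with 63 loops in tumor and 45 in liver mets (0.714, 0.476 to 1.06), and of oxygen sensing with FOXA1, with 20 and 30 (1.5, 0.824 to 2.79).

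Both lines had more FOXA1 than HNF4G loops, as did other coding promoters. In tumor the set had 1.19 times as many FOXA1 as HNF4G loops (1.03 to 1.38), against 1.24 for the others, and in liver mets 1.33 times as many (1.15 to 1.53), against 1.51. The ratio of the set to the others was 0.962 (0.833 to 1.11) in tumor and 0.869 (0.756 to 1.00) in liver mets. As shares of each list the direction turned, to 0.875 (0.757 to 1.01) in tumor and 0.827 (0.718 to 0.954) in liver mets. The FOXA1 list was 1.36 times as long as the HNF4G list in tumor and 1.61 times in liver mets, above the ratios of the set. The 1.24 and 1.51 of other coding promoters were below these list ratios too. By group, lower glycolysis had 100 FOXA1 and 72 HNF4G loops in tumor (1.39, 1.02 to 1.91) and 104 and 76 in liver mets (1.37, 1.01 to 1.86). Upper glycolysis had 142 and 105 in tumor (1.35, 1.04 to 1.76), and the transporters had 71 and 45 in liver mets (1.58, 1.07 to 2.35). Oxygen sensing had 20 and 30 in tumor (0.667, 0.359 to 1.21). The ratios of other promoters, 1.24 in tumor and 1.51 in liver mets, lay inside each of these intervals but that of oxygen sensing in tumor, which ended at 1.21. A count without each gene in turn, made after the values were seen, shows how far these ratios rest on single genes. Without Epas1 oxygen sensing had 19 and 18 loops in tumor (1.06, 0.524 to 2.13), and without Slc16a1 the transporters had 60 and 44 in liver mets (1.36, 0.909 to 2.06). In tumor the interval of lower glycolysis included 1 when Gapdh was left out (1.36, 0.92 to 2.03), and likewise for Eno1, Pdk1, Pgam1 or Pkm. In liver mets it did so without Ldha (1.25, 0.889 to 1.77), and likewise for Eno1, Pdk4 or Pkm. That of upper glycolysis in tumor did so without Hk1 (1.3, 0.986 to 1.73). These ratios of glycolysis stayed above 1 whichever gene was left out, and their lower limits with all genes lay close to 1. The 4 comparisons share lists and are not independent of each other.

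**Figure D5:**
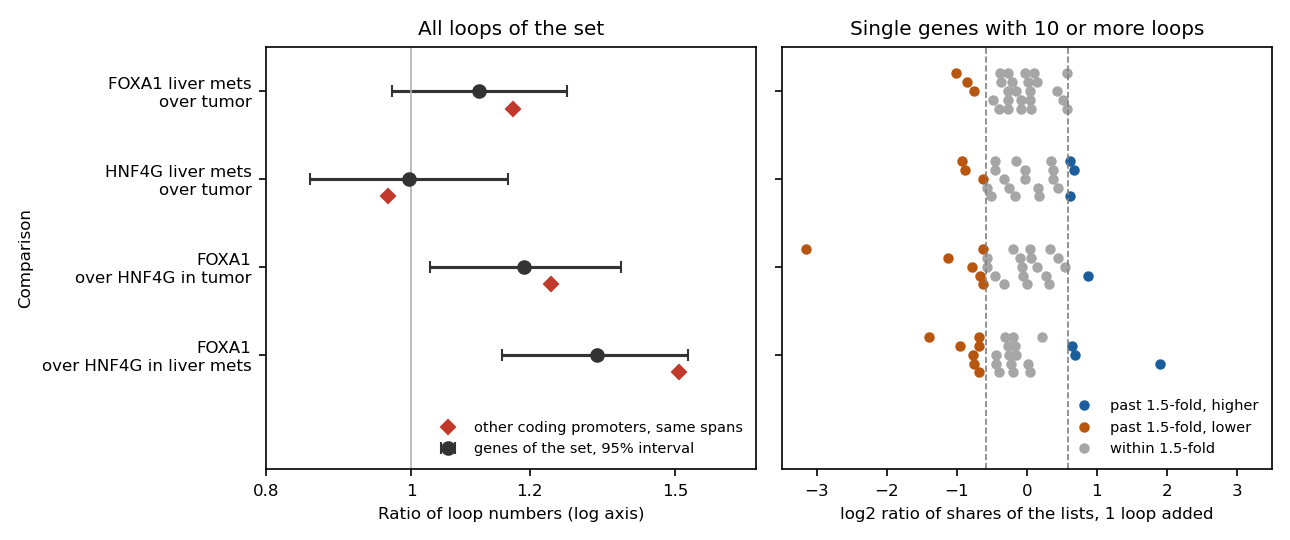
Left, ratio of loop numbers of the set in each comparison with its 95% interval (black) and the ratio for other coding promoters at the same spans (red). Right, log2 ratio of shares for single genes with 10 or more loops, with dashed lines at 1.5-fold. Epas1 is the point near -3 in the comparison of factors in tumor and Slc16a1 the point near 2 in liver mets.

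Single genes were called when their share of a list differed by 1.5-fold or more (log2 of 0.58) with 1 loop added, among genes with 10 or more loops in the pair of lists. For FOXA1 liver mets over tumor, 0 of 26 genes were called higher and 3 lower, with 9.34% higher and 14.4% lower over all 6862 coding genes counted the same way. The 3 were Gpi1 (4 and 6 loops), Ankrd37 (5 and 9) and Adm (7 and 11), and Ddit4 (17 and 9) and Hif1a (8 and 4) lay just under the limit, both at 0.58. Without division by list size 4 were higher and 2 lower. For HNF4G liver mets over tumor, 3 of 22 were higher (Hk1 with 21 and 13, Pgam1 with 10 and 6, Adm with 12 and 7) and 3 lower (Aldoc with 4 and 8, Ldha with 13 and 20, Epas1 with 6 and 12), with 11.0% and 16.3% over 5425 genes. The counts of the set lay near these background shares or below them.

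Between the factors in tumor, 1 of 24 genes was called higher with FOXA1, Ankrd37, and 6 lower, with 9.73% and 21.4% over 6034 genes. The 6 were Slc16a3, Pfkfb3, Aldoc, Epas1, Egln3 and Ddit4. In liver mets 3 of 24 were higher (Slc16a1, Aldoc, Eno1) and 7 lower (Hk1, Pfkfb3, Gapdh, Egln3, Bnip3, Ankrd37, Adm), with 9.15% and 19.6% over 6342 genes, against 12.5% and 29.2% of the set. Without division by list size the split was 7 higher and 2 lower in tumor and 6 higher and 1 lower in liver mets, so most directions rest on the scaling. The median log2 ratio of shares was -0.09 in tumor and -0.26 in liver mets for the set, and -0.16 in both for all genes.

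The counting intervals show how few of these single-gene differences stand out. Of 124 ratios of loop numbers, 3 had an interval that left out 1. These 3 were picked from the 124 by their intervals, and no allowance was made for that number. Epas1 had 1 FOXA1 and 12 HNF4G loops in tumor, a ratio of 0.0833 (0.00195 to 0.563) and a log2 ratio of shares of -3.15. Of its 16 distinct loops, 12 were found with HNF4G only, 2 with FOXA1 only and 2 with both, and its highest values, 3.23 and 3.29, were for a contact with the start of Rhoq 208 kb away in the HNF4G lists. Slc16a1 had 11 FOXA1 and 1 HNF4G loop in liver mets, a ratio of 11.0 (1.6 to 473) and a log2 ratio of 1.90, with 14 of 18 distinct loops found with FOXA1 only. Hif1a had 8 and 1 in liver mets, a ratio of 8.0 (1.07 to 355), too few loops for a call, with 9 of 11 distinct loops found with FOXA1 only. In liver mets other coding promoters had a ratio of 1.51, and the FOXA1 list was 1.61 times as long as the HNF4G list. The Hif1a interval included both values, and that of Slc16a1 included 1.61 and began just above 1.51. The Epas1 interval left out the 1.24 of other coding promoters in tumor and the ratio of list sizes, 1.36.

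Markers of cell identity were counted with the same rule. All 5 epithelial and ductal markers had loops, with 44 for Epcam to 173 for Cdh1 in sum, and the 4 acinar markers had none. Of the other types, 1 of 3 hepatocyte markers (Apoa1, 16), 1 of 2 leukocyte markers (Cd68, 31) and 2 of 3 fibroblast markers (Col1a1, 33, and Pdgfra, 29) had loops, while Alb, Ttr, Ptprc and Dcn had none. A loop at a gene does not show that it is transcribed.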

How the data were processed

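The 4 loop lists were deposited by the authors, 1 for each factor and line, with 2 replicates joined in a way not given in the sources used here. Per the submitters' processing notes and the study's methods, reads were mapped to mm10 with HiC-Pro 3.1.0 (DpnII fragments) and loops were called with hichipper. Each loop was deposited with a value without a name, taken from the values alone to be a −log10 of an adjusted p-value, and with a display score that adds nothing to it. Paired reads per loop were not used here and the depth is unknown.

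Starts came from GENCODE M21 (GRCm38). Spans were measured between anchor midpoints. Other coding promoters were counted by loop ends and reweighted to the spans of the set, with span limits of 10, 20, 50, 100, 200, 500, 1000 and 2000 kb. Ratios had exact Clopper-Pearson intervals, shares Wilson intervals, rates and counts exact Poisson intervals and odds ratios Robins-Breslow-Greenland intervals. Python 3.11.15, pandas 2.3.3 and scipy 1.17.1 were used, and the counting rules were tested on simulated data. Loop numbers per list are given for up to 3 genes per functional group with the most loops, those past 1.5-fold and those without loops, and contacts for some of them, taken from the highest value per list and the longest in all 4 lists. Loops of P4ha1, Slc2a5 and between 2 genes of the set were added by partner after the values were seen. Alternatives changed the start definition, the 2 kb limit, the minimum value and span, anchor width, scaling and the loop minimum. Genes, lists and motifs were chosen with earlier results of these data known.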

Additional observations from a re-analysis of the deposited data

Results flagged for a closer look

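As shares of each list, 3 genes had differences past 1.5-fold that pointed in opposite directions in parallel comparisons, and whether the directions differ was not tested for want of replicates. Adm had a log2 ratio of shares, liver mets over tumor, of -0.86 with FOXA1 (7 and 11 loops) and 0.67 with HNF4G (12 and 7 loops). Aldoc had a log2 ratio of shares, FOXA1 over HNF4G, of -0.62 in tumor (7 and 8 loops) and 0.69 in liver mets (12 and 4 loops). Ankrd37 had 0.87 in tumor (9 and 3 loops) and -0.69 in liver mets (5 and 5 loops). It shares an anchor with Lrp2bp, and at anchors with no other coding start 0 genes were called higher with FOXA1 in tumor. By loop numbers, without division by list size, Adm kept opposite directions (0.636 and 1.71), while Aldoc had 0.875 in tumor and Ankrd37 had equal numbers in liver mets, neither past 1.5-fold. All 6 ratios of loop numbers had counting intervals that included 1.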

How the results depend on the processing

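No paired analysis was possible because each list joins the replicates, and for the same reason no replicate could be left out. Of 166 alternative values for 22 results, 107 stayed within the interval or within 1.5 times the count as reported. The promoter share at the partner moved with the definition of a promoter, to 65.9%, 65.4%, 71.6% and 68.1% (FOXA1 tumor, FOXA1 liver mets, HNF4G tumor, HNF4G liver mets) with starts within 5 kb, 44.1%, 41.3%, 50% and 42.7% with starts inside the anchor, 43.6%, 43.0%, 44.8% and 43.4% with gene-level starts, and 48.1%, 45.3%, 51.8% and 48.5% with coding starts at the partner, a choice made after seeing the data. The shares of other promoters moved too, and the odds ratio stayed below 1 in 28 of 28 alternatives (0.547 to 0.981), with 2 intervals that left out 1. At a value of 2 or more, the HNF4G ratio of liver mets to tumor was 0.814, FOXA1 over HNF4G was 1.02 in tumor and 1.54 in liver mets, the promoter share in HNF4G liver mets was 45.7%, median spans were 212 kb (FOXA1 tumor), 230.4 kb (FOXA1 liver mets) and 178 kb (HNF4G liver mets), and 27.3% of FOXA1 and 25.7% of HNF4G loops were found in both lines. With anchors widened by 5 kb these shares were 61.5% and 59.7%. With spans of 20 kb or more the HNF4G liver mets median was 155 kb, and with gene-level starts the HNF4G tumor median was 179 kb. As shares of each list the ratio was 0.921 for FOXA1 liver mets over tumor, and FOXA1 over HNF4G turned to 0.875 in tumor and 0.827 in liver mets. There the ratios of the set, 1.19 and 1.33, were below the ratios of list length, 1.36 and 1.61. The causes of these changes were not tested.

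Counts of genes past 1.5-fold were small and moved most. For FOXA1 liver mets over tumor, 1 was higher and 1 lower at a value of 2 or more, 2 were higher with spans of 20 kb or more and with 0.5 loops added, 4 were higher by loop numbers, and 2 were higher and 5 lower among genes with 1 or more loops. For HNF4G these counts were 0 and 0 at a value of 2 or more, 5 higher at anchors with no other coding start, and 5 and 5 with 1 or more loops. For FOXA1 over HNF4G in tumor, 3 were higher with starts within 5 kb, 2 with spans of 20 kb or more and with 0.5 loops added, 0 at anchors with no other coding start and with gene-level starts, 7 by loop numbers and 4 with 1 or more loops, and 0 were lower at a value of 2 or more and 2 by loop numbers. In liver mets 0 were higher and 1 lower at a value of 2 or more, 1 was higher with spans of 20 kb or more, 4 were lower with gene-level starts, and 6 were higher and 1 lower by loop numbers.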
